A study of Mus musculus with 13 samples.

Results

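Sox4, Sox11 and Sox12 are the 3 SoxC genes of the mouse, and they were taken by symbol from a table of 12880 genes measured by RNA-seq in whole embryonic limb buds. All 3 were listed. The table held 13 libraries in 4 groups, each library from the limb buds of a separate embryo per the file header. The earlier stage, E11.5 (embryonic days), had 3 controls, given in the header as Sox9fl/-, and 4 mutants, given as Sox9-/- and called Sox9null here. The later stage, E12.5, had 3 controls, given as Sox9fl/fl, and 3 mutants, given as Sox9fl/flPrx1CreER and called Sox9cKO here. The mutants of both ages were thus deficient in Sox9, the E11.5 controls carried 1 functional floxed and 1 null copy of it, and the controls of the 2 ages differed in genotype. Prx1 sequences drive this inducible Cre recombinase in limb mesenchyme, so that other limb cells keep Sox9, and when it was induced is not stated in the labels.

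SOX proteins are transcription factors that bind DNA through an HMG box, and the SoxC group (SOX4, SOX11 and SOX12) is known for overlapping roles in progenitor cells of the nervous system, heart and skeleton. In the limb, SoxC genes are active in mesenchymal progenitors, and they are known for keeping perichondrial and joint cells out of the cartilage fate through WNT signalling. SOX9, a member of another SOX group, drives those progenitors to become chondrocytes. The libraries were made from whole limb buds, so the values cannot be assigned to skeletal progenitors or to any other cell type. All 21 genes of a list of limb mesenchyme and skeletal progenitor markers were among the listed genes, and their summed level was 616 to 733 RPKM over the libraries.

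The longest transcript of each SoxC gene is a single exon on the minus strand in GENCODE M21 (GRCm38, the assembly of mm10). Sox12 has 2 transcripts there, and only the longest was examined. Sox4 (ENSMUSG00000076431) lies at chr13:28948919-28953713, Sox11 (ENSMUSG00000063632) at chr12:27334264-27342574 and Sox12 (ENSMUSG00000051817) at chr2:152393611-152398063. The stretch of 237 in-frame bases that Sox4 and Sox11 share most closely, the first of 3 overlapping ones with the same count, lies in the coding sequence and encodes the HMG box. It is shown because this is where reads of 1 of these genes could be counted for the other. The lines give the coding strand 5′ to 3′ from the GENCODE M21 transcripts, with capitals where Sox4 and Sox11 differ.
Sox4: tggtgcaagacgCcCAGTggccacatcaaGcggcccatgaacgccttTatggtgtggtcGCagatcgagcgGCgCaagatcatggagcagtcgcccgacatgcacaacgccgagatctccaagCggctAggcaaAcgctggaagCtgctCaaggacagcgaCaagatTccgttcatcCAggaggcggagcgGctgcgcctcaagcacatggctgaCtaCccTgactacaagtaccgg
Sox11: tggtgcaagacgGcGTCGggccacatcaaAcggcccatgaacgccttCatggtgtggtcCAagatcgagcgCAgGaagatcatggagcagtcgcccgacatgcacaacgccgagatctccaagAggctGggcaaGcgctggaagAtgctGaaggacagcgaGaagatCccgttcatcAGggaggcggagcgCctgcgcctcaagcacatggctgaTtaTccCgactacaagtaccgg
The windows lie at chr13:28952635-28952871 and chr12:27342052-27342288, both exonic and coding. Sox4 and Sox11 were alike at 212 of 237 positions, or 89.5%. Over the whole transcripts (4795 bases for Sox4, 8311 for Sox11 and 4453 for Sox12), the longest run shared by Sox4 and Sox11 was 48 bases, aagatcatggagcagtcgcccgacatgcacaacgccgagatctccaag, inside this window. The labels state neither the read length nor how reads that match several genes were handled, and any exchange of reads between the 3 genes was not tested. The lincRNA gene Gm26735 overlaps Sox4 on the opposite strand over 2753 bases. Gm26735 is not among the listed genes, and since the use of strand in counting is not given, its reads and those of Sox4 cannot be told apart.

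The values were normalized RPKM, in which reads are divided by the length of the gene and the size of the library, so they can be compared between genes. The labels and the header give no total depth. Sox9, the targeted gene, was at 35.8 to 49.3 RPKM in the E11.5 controls and 20.6 to 25.7 in Sox9null, with no overlap, and at 35.2 to 37.5 in the E12.5 controls and 28.7 to 35.1 in Sox9cKO. Which exons were deleted is not given, so the Sox9 level is an incomplete check of the labels. Across all genes, 2 clusters of libraries were seen at E11.5, of 4 (Sox9null 3 and 4 with controls 1 and 3) and of 3 (Sox9null 1 and 2 with control 2), called library sets here, with a Pearson r of 0.979 to 0.989 within the sets and 0.938 to 0.966 between them. No label says what sets them apart.

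Sox11 was the most abundant SoxC transcript at E11.5. Its levels were 97.7, 85.3 and 81.3 RPKM in the E11.5 controls, 82.3, 83.8, 88.7 and 74.4 in Sox9null, 59.8, 65.9 and 55.8 in the E12.5 controls and 67.8, 68.1 and 67.7 in Sox9cKO. Every E11.5 library lay above every E12.5 library, and the E12.5 controls were the lowest group. The group means were 88.1 ± 8.54 (SD, n = 3), 82.3 ± 5.95 (SD, n = 4), 60.5 ± 5.07 (SD, n = 3) and 67.9 ± 0.218 (SD, n = 3), in the same order. By its mean over all libraries, 75.3 RPKM, Sox11 ranked 123rd of the 12880 genes.

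Sox4 varied the least of the 3 over the libraries. It was at 73.4, 61.1 and 65.7 RPKM in the E11.5 controls, 62.0, 63.9, 66.2 and 60.9 in Sox9null, 61.6, 62.4 and 59.4 in the E12.5 controls and 61.0, 63.0 and 60.2 in Sox9cKO. All 4 groups overlapped, and E11.5 control 1 stood highest. The coefficient of variation over the 13 libraries was 5.84%, against 16.3% for Sox11 and 8.90% for Sox12. The mean of Sox4 over all libraries was 63.1 RPKM, which ranked 238th.

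Sox12 was the least abundant of the 3, with a mean of 23.4 RPKM and rank 3828. It was at 25.3, 25.7 and 22.1 RPKM in the E11.5 controls, 26.0, 27.5, 23.6 and 23.2 in Sox9null, 21.9, 21.6 and 20.6 in the E12.5 controls and 21.9, 22.4 and 22.5 in Sox9cKO. The E11.5 libraries all lay above the E12.5 controls, but E11.5 control 3 lay below Sox9cKO 2 and 3. Every Sox9cKO library was above every E12.5 control by a small margin.

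**Figure D1:**
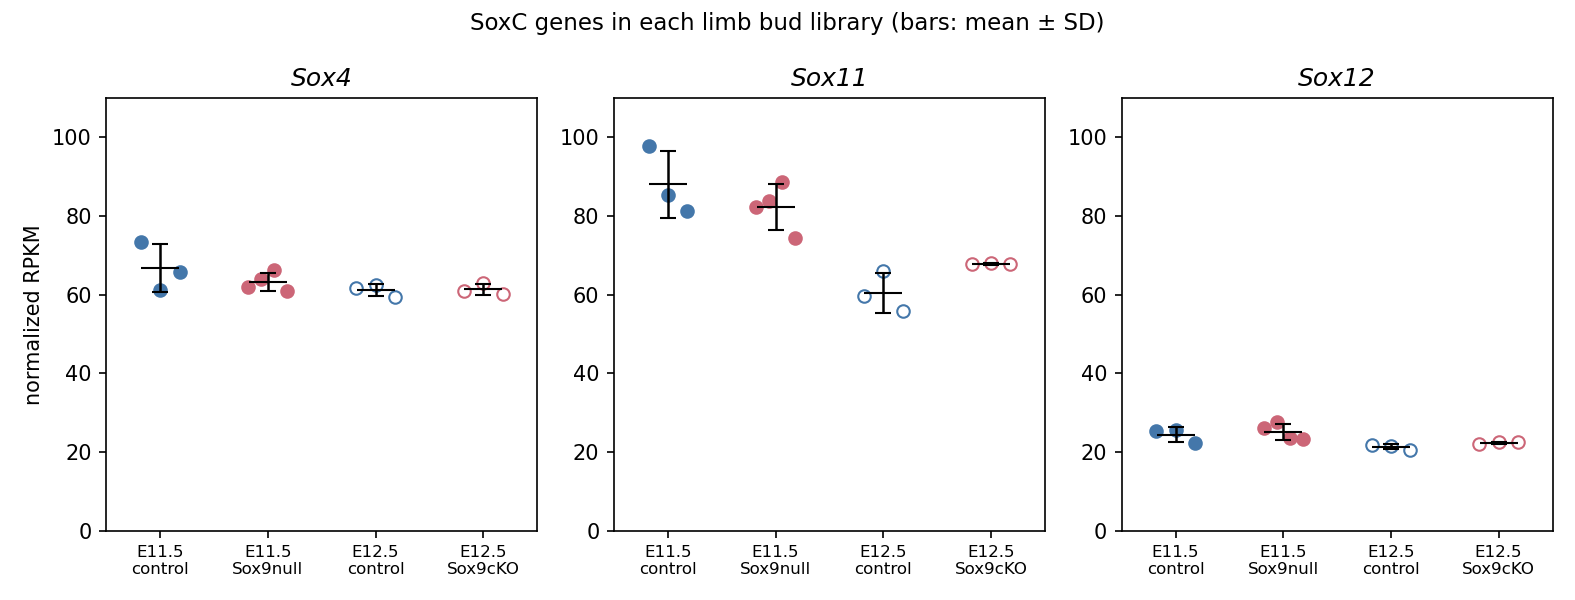
Normalized RPKM (y axis) of Sox4, Sox11 and Sox12 for every library, by group (x axis); filled points are E11.5, open points E12.5, blue controls and red Sox9-deficient libraries, with bars for the mean ± SD. Sox11 was at 74.4 to 97.7 RPKM at E11.5 and 55.8 to 68.1 at E12.5, while Sox4 stayed between 59.4 and 73.4.

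The first comparison asked whether Sox9null limb buds differed from controls at E11.5 in the SoxC genes. None of the 3 was called, where called means an adjusted p under 0.05 in limma on log2(RPKM + 1), with Benjamini-Hochberg adjustment over all genes. Over all genes, 0.0543% were called, and 0 of the 3 SoxC genes had an unadjusted p under 0.05. The log2 difference, Sox9null minus control, was -0.10 for Sox11 (95% interval -0.27 to 0.08), -0.07 for Sox4 (-0.21 to 0.06) and 0.04 for Sox12 (-0.11 to 0.18), each with an adjusted p of 1. Within the larger library set Sox4 differed by -0.13, and within the smaller, which holds 1 control, by 0.04. Sox11 differed by -0.13 and -0.04, and Sox12 by -0.02 and 0.06. The exact two-sided permutation p was 0.457 for Sox4, 0.4 for Sox11 and 0.743 for Sox12, where 0.0571 is the smallest possible with 3 against 4 libraries.

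At E12.5, the question was the same for Sox9cKO. Sox11 was higher in all 3 Sox9cKO libraries than in all 3 controls, with a log2 difference of 0.17 (SE 0.086, 95% interval -0.02 to 0.35), but it was not called (limma, unadjusted p = 0.0765, adjusted p = 1). Sox12 also did not overlap between these groups, with a log2 difference of 0.06 (95% interval -0.10 to 0.21). Over all genes, 20% did not overlap between these 2 groups, in either direction. Sox4 differed by 0.01 (95% interval -0.14 to 0.15), and its groups overlapped. None of the 3 was called, with 0 at an unadjusted p under 0.05, and over all genes 0.194% were called. The exact two-sided permutation p of 0.1 for Sox11 and for Sox12 is the smallest that 3 against 3 libraries allow. For Sox4 it was 0.9.

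The mutant effects on Sox11 had opposite signs at the 2 ages, -0.10 at E11.5 and 0.17 at E12.5, and both 95% intervals included 0. In a description added after the values were seen, 183 genes had a mean within 1.2-fold of that of Sox11. Their median effects also changed sign, from -0.03 to 0.04, and 3 lay below Sox11 at E11.5 and 177 at E12.5. The difference of the 2 Sox11 effects was 0.26 (95% interval 0.01 to 0.52), with an unadjusted p of 0.046 and an adjusted p of 1 in limma. Over all genes, 3.05% had an unadjusted p under 0.05 for this difference. The Sox11 difference was not called, and 0.0311% of all genes were. The difference was 0.08 for Sox4 and 0.02 for Sox12, both with an adjusted p of 1. The mutants of the 2 ages were made differently, so age and type of mutation cannot be told apart here.

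**Figure D2:**
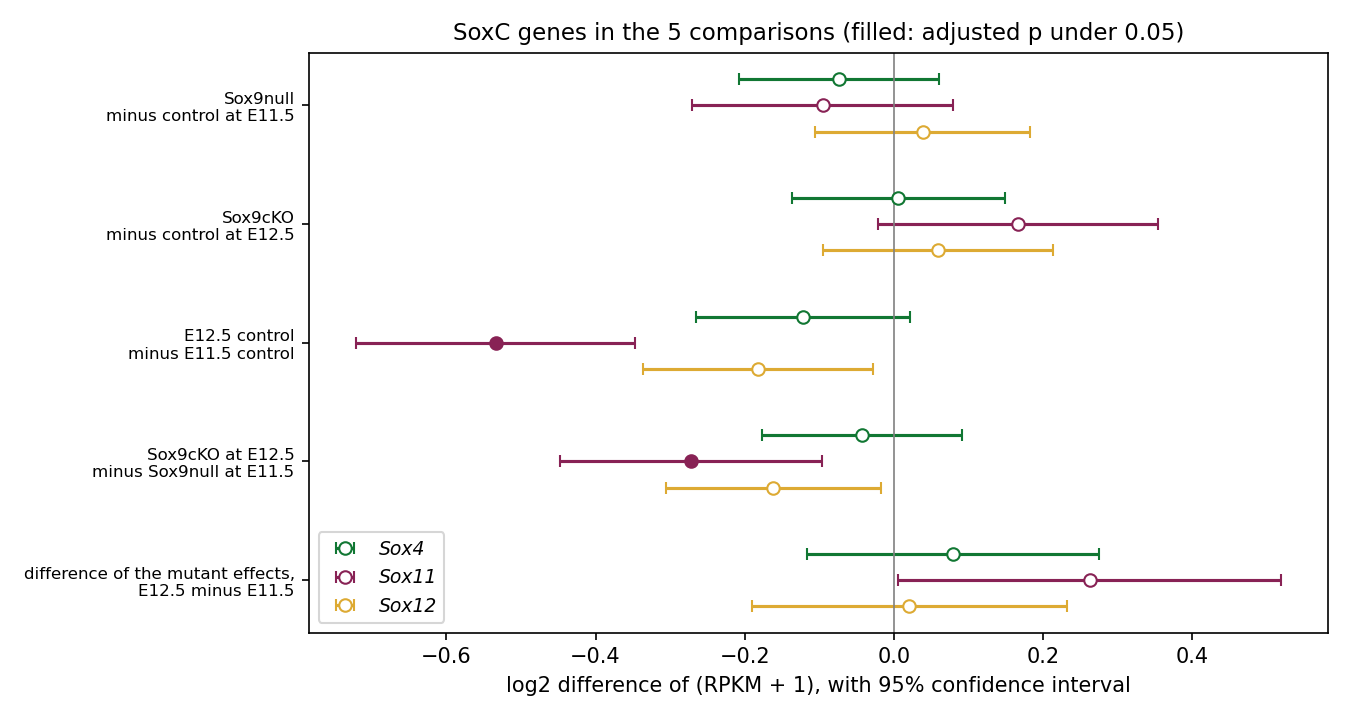
Log2 difference of (RPKM + 1) with its 95% confidence interval (x axis) for Sox4, Sox11 and Sox12 in each of the 5 comparisons (y axis); filled points passed an adjusted p of 0.05 in limma. Only the 2 Sox11 age differences are filled, at -0.53 between controls and -0.27 between mutants.

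Between the ages, Sox11 fell in controls. The mean level was 88.1 RPKM at E11.5 and 60.5 RPKM at E12.5, and the log2 difference was -0.53 (SE 0.086, 95% interval -0.72 to -0.35, limma adjusted p = 0.00184), which is 0.691-fold on the scale of RPKM + 1. All 3 E12.5 controls were below all 3 E11.5 controls, and the exact permutation p of 0.1 is the smallest this design allows. Over all genes, 13.3% were lower in all 3 E12.5 controls in this way. Sox4 had a log2 difference of -0.12 (adjusted p = 0.201) and Sox12 one of -0.18 (adjusted p = 0.085), and neither was called. So 1 of the 3 SoxC genes was called, lower, where 21.7% of all genes were called in this comparison and 5.19% were called lower. With E11.5 control 3 left out, Sox12 passed the test as well, at -0.25 (adjusted p = 0.0317, range over the alternatives 0.0317 to 0.22). Age and the genotype of the controls cannot be told apart in this comparison. In bulk libraries, fewer cells with Sox11 RNA and less Sox11 RNA per cell cannot be told apart either.

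The size of this fall depended on how libraries were scaled to each other. With each library centred on its median, the Sox11 difference between controls was -0.63. With quantile normalization it was -0.26, and the call was lost (adjusted p = 0.0607, range over the alternatives 0.00049 to 0.0607). Under quantile normalization Sox4 changed sign to 0.09, and under median centring it was called, at -0.22 (adjusted p = 0.0195, range over the alternatives 0.0195 to 0.568). Sox12 was called under median centring, at -0.28 (adjusted p = 0.0321). Abundant genes were lower at E12.5 as a class in the deposited values. In a description added after the values were seen, the 183 genes whose mean lay within 1.2-fold of that of Sox11 had a median log2 difference of -0.27 between controls, against 0.06 over all genes. Of these 183 genes, 37.7% were called lower and 6 had a lower value than Sox11. Over all genes, 2126 were called higher and 668 lower as deposited, 1477 and 1187 after quantile normalization, and 1424 and 1828 after median centring.

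Among mutants, Sox11 was also lower at E12.5, with a log2 difference of -0.27 (SE 0.080, 95% interval -0.45 to -0.10, limma adjusted p = 0.0356), or 0.828-fold. All 3 Sox9cKO libraries lay below all 4 Sox9null libraries, and the exact permutation p was 0.0571, the smallest possible. Over all genes, 9.75% were lower in this way. This call was close to the threshold. The adjusted p in limma was 0.0627, 0.0742 or 0.0613 without Sox9null 1, 2 or 3, and 0.102, 0.109 or 0.0898 without Sox9cKO 1, 2 or 3, with log2 differences of -0.27 to -0.24. Under quantile normalization the difference was -0.05 (adjusted p = 0.666, range over the alternatives 0.0129 to 0.666). Sox4 differed by -0.04 (adjusted p = 0.64) and Sox12 by -0.16 (adjusted p = 0.102), neither called. In this comparison 19.7% of all genes were called and 5.23% were called lower. Of the 183 genes with a level like that of Sox11, 25.7% were called lower, their median log2 difference was -0.20, and 50 had a lower value than Sox11. The comparisons share libraries with those above: the E12.5 controls enter both the control age difference and the Sox9cKO difference.

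**Figure D3:**
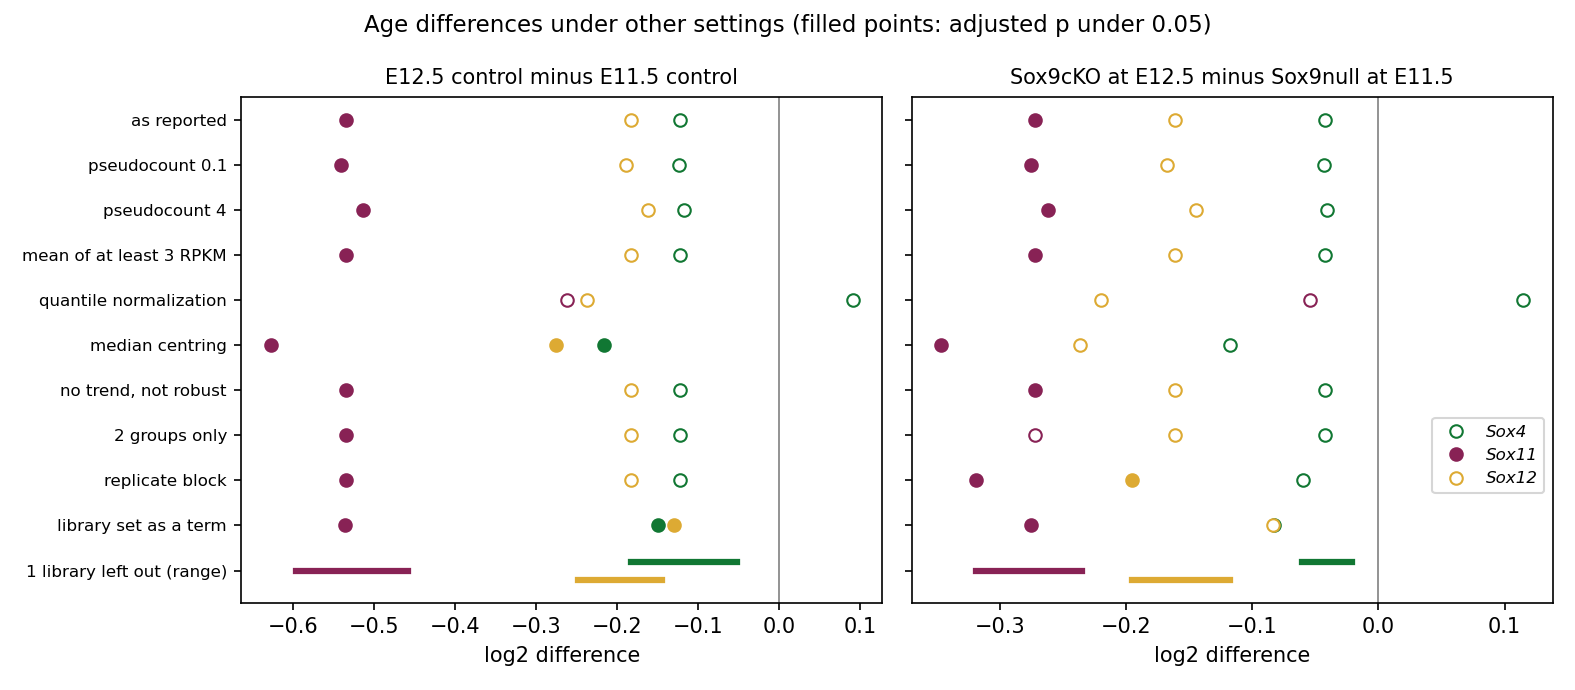
Log2 differences (x axis) of Sox4, Sox11 and Sox12 between E12.5 and E11.5 in controls (left) and mutants (right) under the reported and other settings (y axis); filled points have an adjusted p under 0.05, and the bars in the bottom row show the range when 1 library is left out. Sox11 stays below 0 throughout, at -0.26 in controls and -0.05 in mutants under quantile normalization, where Sox4 lies at 0.09 and 0.11.

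A ratio of 2 genes within a library does not depend on a factor that scales the whole library. The ratio of Sox11 to Sox4 in RPKM was 1.33, 1.39 and 1.24 in the E11.5 controls, 1.33, 1.31, 1.34 and 1.22 in Sox9null, 0.971, 1.06 and 0.940 in the E12.5 controls and 1.11, 1.08 and 1.12 in Sox9cKO. Every E11.5 library had a higher ratio than every E12.5 library, and every Sox9cKO library had a higher ratio than every E12.5 control. The log2 ratio differed by -0.42 between controls of the 2 ages (exact permutation p = 0.1), by -0.23 between mutants of the 2 ages (exact permutation p = 0.0571), by -0.02 between Sox9null and control (exact permutation p = 0.686) and by 0.16 between Sox9cKO and control (exact permutation p = 0.1). These are the smallest possible p-values except for that of Sox9null. A difference in the ratio does not say which of the 2 genes changed. The exact p-values cannot fall below 0.1 or 0.0571, so they cannot decide whether the genes changed unequally. A ratio also keeps any distortion that depends on level. How many other gene pairs separate in this way was not tested.

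The order of Sox11 and Sox4 was not the same in every library. Sox11 exceeded Sox4 in all 7 E11.5 libraries and in all 3 Sox9cKO libraries. In the E12.5 controls the 2 did not differ beyond their spread, with 60.5 ± 5.07 RPKM (SD, n = 3) for Sox11 and 61.1 ± 1.58 (SD, n = 3) for Sox4. Sox12 was the lowest in every library and held 12.9% to 15.7% of the summed SoxC level. That sum was 179 ± 15 RPKM (SD, n = 3) in the E11.5 controls, 171 ± 8.72 (SD, n = 4) in Sox9null, 143 ± 7.05 (SD, n = 3) in the E12.5 controls and 152 ± 1.71 (SD, n = 3) in Sox9cKO. The Sox11 share of it went from 49.1% in the E11.5 controls to 42.3% in the E12.5 controls.

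**Figure D4:**
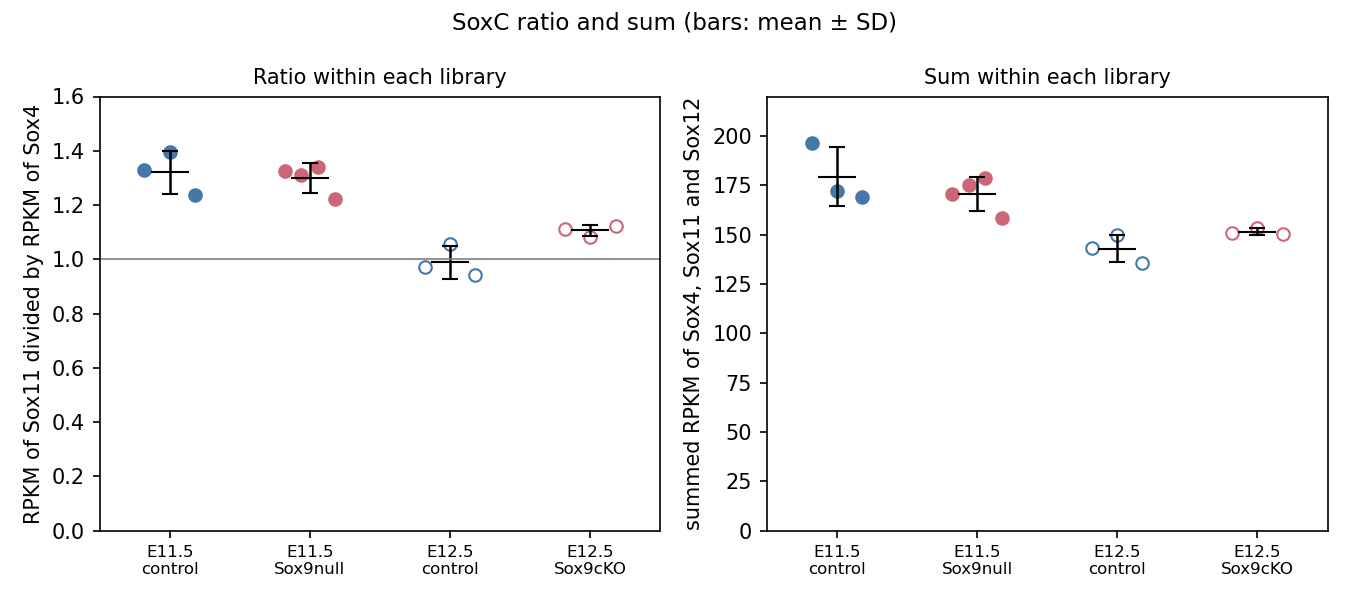
Ratio of Sox11 to Sox4 RPKM (left y axis, line at 1) and summed RPKM of Sox4, Sox11 and Sox12 (right y axis) for every library, by group (x axis); filled points are E11.5, open points E12.5, with bars for the mean ± SD. The ratio lay between 1.22 and 1.39 at E11.5, between 0.940 and 1.06 in the E12.5 controls and between 1.08 and 1.12 in Sox9cKO.

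Among the 12 listed SOX genes, Sox11 and Sox4 had the highest mean levels, followed by Sox9 with 32.4 RPKM and then Sox12. The 3 SoxC genes made up 55.6% to 69.1% of the summed RPKM of the listed SOX genes. The others were Sox18, Sox13, Sox8, Sox6, Sox5, Sox7, Sox17 and Sox10, from 13.4 down to 1.91 RPKM. Of these 9 genes other than SoxC, 1 was called at E11.5, the targeted gene Sox9 (log2 difference -0.76, limma adjusted p = 0.036), where 0.0543% of all genes were called. That call was lost under 10 of 16 alternatives (adjusted p up to 0.523). At an unadjusted p under 0.05 there were 4 of the 9, against 2.82% of all genes. At E12.5 none of the 9 was called in limma, against 0.194% of all genes. Of the 9, 3 had an unadjusted p under 0.05, against 5.41% of all genes. Between mutants 3 of the 9 were called higher and 1 lower, where 14.5% and 5.23% of all genes were. Each of those calls was lost under at least 1 alternative. Sox6, a partner of SOX9 in cartilage, rose between controls, from 8.84 to 20.2 RPKM (log2 difference 1.16, limma adjusted p = 0.00562), a direction opposite to that of Sox11.

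SoxC proteins are reported to act through a short list of target genes, of which Tead2, Tubb3, Dcx, Fzd3, Csnk1e and Gdf5 were among the listed genes and Map2 was not. None of the 6 was called in limma in Sox9null or in Sox9cKO, with 0 and 2 at an unadjusted p under 0.05, where 2.82% and 5.41% of all genes had one. Between the controls of the 2 ages 1 rose and 1 fell, with a median log2 difference of -0.09, against 0.06 over all genes, of which 16.5% were called higher and 5.19% lower. After quantile normalization, and also after median centring, 1 rose and 3 fell, with medians of -0.10 and -0.18. In mutants 2 rose and 1 fell, with a median of -0.02, against 0.06 over all genes, of which 14.5% were called higher and 5.23% lower. After median centring 2 rose and 2 fell between mutants.

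Tead2, a transcription factor gene of the Hippo pathway, fell between controls and between mutants. It was at 73.2, 59.8 and 71.8 RPKM in the E11.5 controls and 51.4, 50.6 and 48.7 in the E12.5 controls, with no overlap (log2 difference -0.43, limma adjusted p = 0.00789). Over all genes, 13.3% were lower in every E12.5 control than in every E11.5 control. In mutants the log2 difference was -0.37 (adjusted p = 0.016). That call was lost without Sox9cKO 1 (adjusted p = 0.0531) or 2 (adjusted p = 0.0691) and with only the 2 groups compared in the fit (adjusted p = 0.0506), 3 of 16 alternatives. After quantile normalization Tead2 was still called, at -0.25 between controls and -0.23 between mutants. Tead2 was at 66.9 ± 7.21 RPKM (SD, n = 4) in Sox9null and 51.5 ± 0.729 (SD, n = 3) in Sox9cKO, near the controls of each age.

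Gdf5, a growth factor gene of the joint-forming cells, rose between controls. Its levels were 8.71, 11.8 and 12.4 RPKM at E11.5 and 39.6, 36.2 and 39.5 at E12.5 (log2 difference 1.73, limma adjusted p = 0.000555). In Sox9cKO it was at 27.6, 25.6 and 16.1, below all E12.5 controls, but not called (log2 difference -0.74, limma adjusted p = 0.289). Over all genes, 20% did not overlap between Sox9cKO and the E12.5 controls, in either direction. Tubb3, a neuronal tubulin gene, rose between mutants, from 13.5 ± 2.20 RPKM (SD, n = 4) to 21.5 ± 0.760 (SD, n = 3), with a log2 difference of 0.65 (limma adjusted p = 0.00399). Tubb3 and Dcx, a microtubule-binding protein gene of young neurons, are also on the list of neuron markers. Dcx had a log2 difference of -0.40 between controls (adjusted p = 0.0763). Fzd3, a WNT receptor gene, and Csnk1e, a casein kinase gene of the WNT pathway, had -0.01 (adjusted p = 0.976) and -0.17 (adjusted p = 0.0603). Dcx was called lower between controls under both other scalings, at -0.57 after quantile normalization (adjusted p = 0.0308) and -0.50 after median centring (adjusted p = 0.0494). Csnk1e was called under both too, at -0.16 (adjusted p = 0.0152) and -0.26 (adjusted p = 0.00244), and between mutants after median centring, at -0.17 (adjusted p = 0.0192).

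Of the 19 listed genes of the TEAD and YAP pathway, 7 rose and 2 fell between controls, and 3 rose and 2 fell between mutants. Over all genes, 16.5% were called higher and 5.19% lower between controls, and 14.5% and 5.23% between mutants. Those that fell in both were Tead2 and Yap1, which encodes a coactivator of TEAD factors (log2 difference -0.26 in controls, adjusted p = 0.00208). The related coactivator gene Wwtr1 rose by 0.32 (adjusted p = 0.00162), and so did Ctgf and Cyr61, which encode matrix proteins induced through YAP (0.56 and 0.76). After median centring 4 rose and 2 fell between controls. None of the 19 was called in Sox9null or Sox9cKO, with 0 and 4 at an unadjusted p under 0.05, against 2.82% and 5.41% of all genes.

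The canonical WNT list had 18 listed genes, of which 0 rose and 2 fell in each age comparison. Between controls 16.5% of all genes were called higher and 5.19% lower, and between mutants 14.5% and 5.23%. The 2 that fell were Ctnnb1, the gene of β-catenin, and Tcf7, a transcription factor gene that works with it. Their log2 differences between controls were -0.40 (limma adjusted p = 0.0208) and -0.46 (limma adjusted p = 0.00266). Under quantile normalization Tcf7 was still called, at -0.57, while Ctnnb1 turned to 0.03 (adjusted p = 0.512). The median of the list was -0.05 between controls, against 0.06 over all genes. In the noncanonical WNT and planar polarity list, 4 of 22 rose and 3 fell between controls (2 and 5 after median centring, 3 and 1 after quantile normalization), where 16.5% of all genes were called higher and 5.19% lower. Wnt11, a ligand gene, rose by 0.52 (adjusted p = 0.00384), and Ptk7, a planar polarity receptor gene at a level close to that of Sox4, fell by 0.33 (adjusted p = 0.00126), a call lost under quantile normalization, at -0.08 (adjusted p = 0.384). Neither list had a called gene in Sox9null or Sox9cKO. At an unadjusted p under 0.05 there were 0 and 0 of the canonical list, and 1 and 1 of the noncanonical list, against 2.82% and 5.41% of all genes.

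Other cell groups differed between the libraries beside the SoxC genes. Between the controls of the 2 ages, 16.5% of all genes were called higher and 5.19% lower, and among the 183 abundant genes with a level like that of Sox11, 37.7% were called lower. The summed RPKM of 16 proliferation genes was 725 to 847 in the E11.5 controls and 677 to 706 in the E12.5 controls, and all 16 had a log2 difference below 0, with 4 called (Top2a, Mcm2, Mcm3 and Plk1). After median centring 10 were called lower, and after quantile normalization 2 lower and 1 higher. The limb mesenchyme and skeletal progenitor list went from a sum of 678 to 727 down to 616 to 655, with 18 of 21 below 0 but 0 called lower and 2 called higher (Twist2 and Msx2). After median centring 0 of the 21 were called higher and 7 lower, and after quantile normalization 1 and 2. Skeletal muscle markers (11 genes) went from 82.1 to 106 up to 199 to 231 RPKM, with 7 called higher. On that list 4 had a log2 difference below 0, with Pax3 called lower (-0.98, limma adjusted p = 0.0212). Macrophage markers (11 genes) went from 48.7 to 58.0 up to 83.9 to 98.7, with 9 called higher and 0 lower. Erythroid markers (14 genes) went from 846 to 951 down to 647 to 704, with 3 called lower, 0 called higher and 4 above 0. Cartilage genes (16 listed) went from a sum of 161 to 226 up to 316 to 409, with 12 called higher. Neuron markers (7 genes) went from 56.3 to 66.9 up to 69.8 to 74.2, with 2 called higher, 0 lower and 2 below 0. Schwann cell and neural crest glia markers (3 genes) went from 25.1 to 28.8 up to 43.3 to 46.3, with 2 called higher and 0 lower. Surface ectoderm markers (12 genes) went from 145 to 173 up to 183 to 191, with 3 called higher, 1 lower and 5 below 0. Endothelial markers (12 genes) went from 164 to 183 up to 184 to 199, with 1 called higher and 0 lower. The part of these differences in the fall of Sox11 was not tested.

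At E12.5, where Sox11 was higher in Sox9cKO without passing the test, the sum of the 7 neuron markers was 69.8 to 74.2 RPKM in controls and 80.8 to 89.7 in Sox9cKO. On that list 5 of the 7 had a log2 difference above 0, while the neurofilament genes Nefl and Nefm had -0.29 and -0.37, and none was called. The 3 listed Schwann cell and neural crest glia markers summed to 43.3 to 46.3 RPKM in controls and 31.0 to 39.8 in Sox9cKO. The 12 surface ectoderm markers summed to 183 to 191 RPKM in controls and 158 to 180 in Sox9cKO. Of these, 9 had a log2 difference below 0 and 3 above, and 0 were called. The 14 erythroid markers summed to 647 to 704 and 897 to 1107 RPKM, with 2 called higher and 0 lower. The 16 cartilage genes summed to 316 to 409 and 162 to 228, with 5 called lower and 0 higher. Over all genes, 0.194% were called in this comparison. The 16 proliferation genes summed to 677 to 706 in controls and 710 to 736 in Sox9cKO. Of these, 15 had a log2 difference above 0 and 1 below, and 0 were called. The mesenchyme list was at 616 to 655 in controls and 652 to 684 in Sox9cKO. No listed marker of these cell types was at 0 in all libraries of a group. The part of these shifts in the SoxC values was not tested.

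The genes whose levels followed those of a SoxC gene most closely over the 13 libraries were found by Pearson r on log2(RPKM + 1), as a description. The depth of the libraries is unknown, the E11.5 libraries form 2 sets, and r across groups also reflects age. For Sox11 these were Septin11 (a cytoskeletal septin, r = 0.967), Hnrnpul1 (an RNA-binding protein, 0.963), Plk1 (a mitotic kinase, 0.963) and Gatad2a (a chromatin repressor subunit, 0.961). The r of deviations from group means was 0.854, 0.752, 0.834 and 0.884 for the same genes. For Sox4 they were Ptpn11 (a tyrosine phosphatase, 0.922), Fbxw8 (0.895), Smek1 (0.867) and Ano8 (0.848), with 0.880, 0.923, 0.868 and 0.789 for deviations. For Sox12 they were Rhbdd2 (0.966), Fmnl3 (a formin, 0.959), Carm1 (an arginine methyltransferase, 0.959) and the microRNA gene Mir5105 (0.957). The r of deviations was 0.953, 0.919, 0.898 and 0.962 for these genes. Sox12 was higher in the smaller E11.5 library set, at 25.7 (1 control) and 26.8 RPKM (2 Sox9null), than in the larger, at 23.7 and 23.4. Mir5105 had means of 2995 (controls) and 2740 RPKM (Sox9null) at E11.5, and 668 (controls) and 823 (Sox9cKO) at E12.5.

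Among themselves, Sox11 had an r of 0.787 with Sox12 and 0.731 with Sox4, and Sox4 and Sox12 had 0.38. For Sox11, 512 of the other 12879 genes had a higher r than Sox12 and 795 a higher r than Sox4. For Sox4, 148 genes had a higher r than Sox11 and 2304 a higher r than Sox12. For Sox12, 685 had a higher r than Sox11 and 2604 a higher r than Sox4. The r of deviations from group means was 0.76 for Sox11 and Sox4, 0.437 for Sox11 and Sox12 and 0.0798 for Sox4 and Sox12.

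The 3 genes lie on different chromosomes, and the nearest listed genes did not share the fall of Sox11. Beside Sox11, Rnf144a and Cmpk2 lay 919 and 854 kb to the left, and Rps7 and Rnaseh1 lay 1288 and 1307 kb to the right. Their log2 differences between controls were 0.10, 0.41, 0.10 and 0.04, and none was called. Beside Sox4 were 2610307P16Rik (63.3 kb) and Prl8a2 (1595 kb) on the left and Cdkal1 (238 kb) and E2f3 (953 kb) on the right. Prl8a2, a prolactin family gene, had means of 0.0483 RPKM in the E11.5 controls, 0.0993 in Sox9null, 6.82 in the E12.5 controls and 8.50 in Sox9cKO. Its log2 difference was 1.92 between controls, not called (limma adjusted p = 0.0851), and 3.00 between mutants (limma adjusted p = 0.0146). Beside Sox12, Nrsn2 lay 17.0 kb to the left and Zcchc3 13.9 kb to the right, with Rbck1 and H13 beyond them. None of these 4 was called in any of the 4 comparisons of groups.

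In the authors' deposited table, the adjusted p over the 4 groups was 0.00645 for Sox11, 0.0997 for Sox12 and 0.38 for Sox4. By that p-value, Sox11 was at place 879 of the 12880 genes, of which 2838 had a value of at most 0.05.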

How the data were processed

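Per the labels, limb bud total RNA (RNeasy Mini Kit) went into standard Illumina libraries. CASAVA 1.8 and the mm10 build are named in the submitters' processing notes. The aligner, the counting and the use of strand were not given in the sources used here. Normalized RPKM were deposited by the authors for genes with a mean of at least 3 in 1 or more groups, per the file headers, with a p-value over the 4 groups. Library depth is not given, and a search for steps of single reads among low values did not resolve it.

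The members and gene lists were chosen with earlier results of these data known. Groups came from the labels. Values were tested as log2(RPKM + 1) with limma 3.58.1 (R 4.3.3), trend and robust, over all 13 libraries and 12880 genes. A gene was called at a Benjamini-Hochberg adjusted p under 0.05. Exact permutation tests (SciPy 1.17.1) were two-sided. The fit was tested on simulated data with independent noise for each gene. Those data had no library sets and no shift by level, so that test does not cover them. Separate embryos are replicates per the file header. Genes named are the SoxC genes, the 4 most alike each (predicted genes left out), the 2 nearest listed genes on each side and members of 16 lists that were called or most abundant. Of 240 list symbols, 29 were not listed. The coding sequence of Sox12 is not reported here.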

Additional observations from a re-analysis of the deposited data

How the results depend on the processing

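Each SoxC result was recomputed with other pseudocounts (0.1 and 4), a filter, 2 other scalings, other model settings and each library left out. Quantile normalization gave Sox4 log2 differences of 0.092 between controls, 0.11 between mutants and -0.027 in Sox9cKO against control, the signs of all 3 reversed. It took Sox11 to -0.26 between controls and -0.054 between mutants, both no longer called. Median centring made Sox4 (-0.22) and Sox12 (-0.28) called between controls, and so did a term for the E11.5 library set (-0.15 and -0.13). With only the 2 groups compared, Sox11 between mutants stayed at -0.27 with an adjusted p of 0.0622 in limma. With libraries left out, the ranges were -0.32 to -0.24 for Sox11 between mutants, -0.25 to -0.14 for Sox12 between controls, -0.027 to 0.076 for Sox12 in Sox9null, -0.014 to 0.021 for Sox4 in Sox9cKO and -0.017 to 0.086 for the difference of effects on Sox12. The Sox11 difference between controls ranged from -0.60 to -0.46 and remained called. Sox10 between mutants was -0.0038 after quantile normalization, against 0.64 as deposited. Except where a construction explains it (fewer libraries), the cause was not tested.

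Replicate numbers gave no sign of pairing the libraries: 5 of 18 same-numbered pairs had a correlation of deviations over 0.1 (range -0.43 to 0.64). Of the pairs with different numbers, 16 of 45 did (range -0.72 to 0.74). With the replicate number as a block, Sox12 between mutants was called at -0.20, and the difference of effects on Sox12 was -0.013. No other SoxC call changed under the block.

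Counts of called genes over all genes varied with the settings, from 0 to 41 for Sox9null (7 as reported), 9 to 105 for Sox9cKO (25), 1381 to 5745 between controls (2794), 708 to 4990 between mutants (2539) and 0 to 11 for the difference of effects (4). The checks of 2 short lists were added after seeing the data. Unknown depth limits the precision that can be given to any RPKM.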
